A study of Mus musculus with 4 samples.

Results

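Fractalkine, its receptor and the protease that frees it form a signalling line from neurons to microglia, the resident immune cells of the cord. Cx3cl1 encodes fractalkine, a chemokine that neurons carry on their membrane until a protease cuts it loose. Cx3cr1 encodes its receptor, which in the cord is carried mainly by microglia and other macrophages. Ctss encodes cathepsin S, a lysosomal protease that microglia can also release and that cuts fractalkine, and this loop is a long-studied route by which microglia are thought to sustain pain after nerve injury. The 3 genes were taken by the gene name in the scanner files, which gave 4 probes of 55681 non-control probes: 1 for Cx3cl1, 2 for Cx3cr1 and 1 for Ctss. All 3 genes were among the 29249 genes and named transcripts tested.

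The arrays were run on lumbar cord from male mice of the outbred ICR strain, 8 weeks old, with tissue taken at 10 days after surgery. In the SNL group (spinal nerve ligation, 2 mice) silk thread was tied around the L5 spinal nerve, and in the sham group (2 mice) that nerve was exposed without being tied. All 4 mice had the same surgical approach, in which a vertebral process is removed, and were perfused with saline before the cord was collected. The labels give the segment as L5 in one field and as L4 to L5 in another, and do not say which side of the cord was used. Each mouse gave 1 sample and 1 array, so each error and p-value below rests on 2 mice per group. Arrays measure transcripts, so neither freed fractalkine nor protease activity was measured.

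A level is given below as log2 of the spot's processed signal relative to the 75th percentile of its array, and a change is SNL minus sham on that scale. Of the spots, 74.9% to 82.1% were well above background per array, and 0 were saturated. All 4 arrays lie on 1 slide, with both sham arrays at the first position index and both SNL arrays at the second, so position and group cannot be told apart. Same-numbered sham and SNL arrays share the other position index. The tissue label was set against its markers: the 18 neuron, 9 oligodendrocyte and 10 astrocyte genes listed for this purpose were all well above background on at least 2 arrays. So were 11 of 13 T, B and NK cell genes and 6 of 8 sensory ganglion and Schwann cell genes. Detection alone therefore cannot tell cord from other tissue. Sham replicate 2 stood apart in Prx, which encodes periaxin of myelinating Schwann cells and was singled out after its values were seen. It was at 1.78 and -3.85 in the sham pair and at 1.97 and 1.29 in the SNL pair. The part of this difference in the results was not tested, and the change of each of the 3 genes is therefore also given without that mouse.

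Cx3cl1 transcript was at nearly the same level in both groups. The processed signals were 51678 and 53849 in the sham mice and 50094 and 53779 in the SNL mice, and the levels 2.02 and 2.15 against 2.08 and 2.04. The groups overlapped: relative to the 75th percentile of their arrays, both SNL mice lay inside the sham range. Mean levels were 2.08 (SD 0.095, n = 2) in sham and 2.06 (SD 0.030, n = 2) in SNL. The change was -0.023 ± 0.10 (SE, n = 2 per group, limma adjusted p = 0.947), or 0.984-fold, with a 95% interval from 0.803-fold to 1.21-fold. With 2 mice per group, a change within these bounds is not excluded. Without sham replicate 2 the change was 0.044, so its sign depended on that mouse. The probe lies on mm9 chromosome 8 at 97306185 to 97306244, on the plus strand.

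Cx3cr1 was higher in both SNL mice than in either sham mouse, by both of its probes. The brighter probe gave processed signals of 36244 and 34439 in the sham mice and of 54111 and 51140 in the SNL mice. Levels were 1.51 (SD 0.00094, n = 2) in sham and 2.08 (SD 0.16, n = 2) in SNL, and the near identity of the 2 sham levels was not shared by the other probe. The change was 0.57 ± 0.12 (SE, n = 2 per group), or 1.49-fold, with a 95% interval from 1.17-fold to 1.90-fold. It did not pass over all genes (limma adjusted p = 0.258). Without sham replicate 2 the change was 0.58.

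The dimmer Cx3cr1 probe gave 11129 and 8745 in the sham pair against 16841 and 15899 in the SNL pair, again without overlap. Its change in a fit over all probes was 0.73 ± 0.16 (SE, n = 2 per group, limma adjusted p = 0.275), or 1.66-fold. Its level was -0.33 (SD 0.19, n = 2) in sham and 0.40 (SD 0.16, n = 2) in SNL. The dimmer probe lies on mm9 chromosome 9 at 119959018 to 119959077 and the brighter at 119957811 to 119957870, both on the minus strand. Their starts are 1207 bases apart, the brighter one further along the transcript. Where the probes lie within exons was not analysed here.

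Ctss had the widest gap between the groups of the 3 genes. Processed signals were 64367 and 67604 in the sham mice and 103052 and 109395 in the SNL mice, so that the lower SNL value lay well above the higher sham value. Levels were 2.41 (SD 0.10, n = 2) in sham and 3.09 (SD 0.042, n = 2) in SNL. The change was 0.69 ± 0.10 (SE, n = 2 per group), or 1.61-fold, with a 95% interval from 1.31-fold to 1.99-fold. Like Cx3cr1, it did not pass over all genes (limma adjusted p = 0.177). Without sham replicate 2 the change was 0.76. The probe lies on mm9 chromosome 3 at 95360245 to 95360304, on the plus strand.

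**Figure D1:**
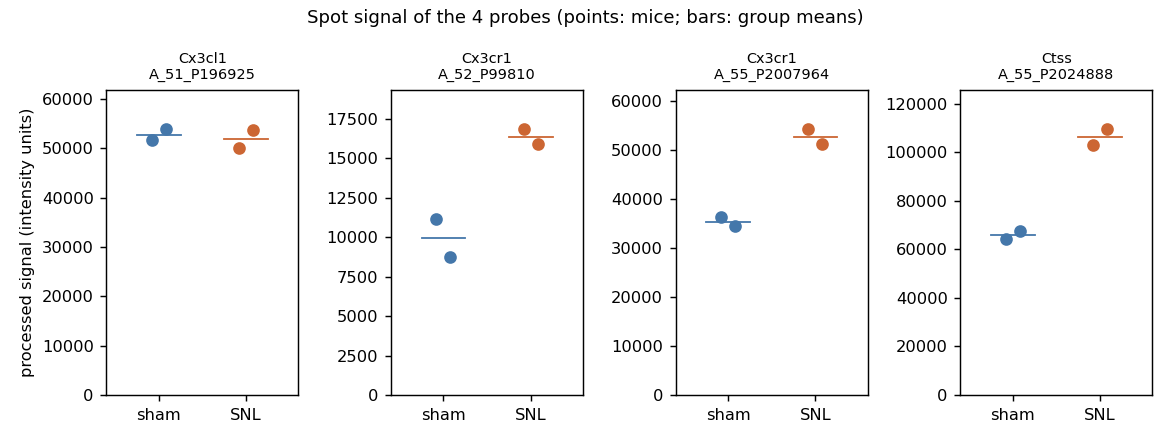
Processed signal (intensity units, linear axis from 0) of the 4 probes, with 1 point per mouse and a bar at each group mean, sham in blue and SNL in orange. Both Cx3cr1 probes and the Ctss probe have both SNL mice above both sham mice, and the Cx3cl1 groups overlap.

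Of the 3 genes, 0 passed at adjusted p under 0.05, where 0.161% of all genes tested were called higher and 0.0103% lower. At unadjusted p under 0.05, Cx3cr1 and Ctss were higher, against 6.67% of all genes higher and 5.47% lower. Their groups did not overlap, with SNL higher, which also held for 25.2% of all genes. An increase at least as large as that of Ctss was measured for 5.07% of genes, and one at least as large as that of Cx3cr1 for 6.68%. The calls depended on how the spread was modelled: with a variance trend and robust estimation, Cx3cr1 and Ctss passed (limma adjusted p = 0.0414 and 0.0180) and the number of genes called went from 50 to 560. With normexp background correction Cx3cr1 was at 0.34, a fall of the estimate by over 1.5 times, and Ctss at 0.54.

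The receptor and the protease were set against the ligand within each mouse, which removes any scaling shared by an array. The Ctss value minus the Cx3cl1 value, centred on its mean over the 4 mice, was -0.36 and -0.35 in the sham pair against 0.36 and 0.35 in the SNL pair. The difference was thus 0.71 ± 0.0099 (SE, n = 2 per group) larger after ligation. Repeat spots of one bright probe on one array had a median SD of 0.0486 to 0.0714, more than this SE, which with 2 mice per group is itself poorly known. For Cx3cr1 minus Cx3cl1 the centred values were -0.23 and -0.37 in the sham pair against 0.39 and 0.21 in the SNL pair, a difference larger by 0.60 ± 0.11. For both pairs the exact two-sided permutation p was 0.333 (0.5 adjusted over the 3 pairs compared), the smallest that 2 against 2 mice allow. For Ctss minus Cx3cr1 the groups overlapped, with a difference of 0.11 ± 0.11 (exact permutation p = 0.667, adjusted p = 0.667).

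Because Cx3cr1 and Ctss were both higher in every SNL mouse, the sequences upstream of their RefSeq starts are shown. The 250 bases before each start (RefSeq, GRCm38.p6, coding strand) were searched on both strands for GAGGAA, the core bound by the myeloid factor PU.1, for the interferon response element (a pair of TTTC with NN between), for the AP-1 site TGACTCA and for the NF-kB consensus. Matches do not overlap in the sequences below, and capitals mark them.
Ctss, chr3:95526536-95526785, plus strand: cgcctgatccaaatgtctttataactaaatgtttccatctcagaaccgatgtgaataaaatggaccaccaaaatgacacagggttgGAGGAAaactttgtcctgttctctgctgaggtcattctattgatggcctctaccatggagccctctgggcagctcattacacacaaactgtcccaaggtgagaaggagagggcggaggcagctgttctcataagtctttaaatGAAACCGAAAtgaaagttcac
Cx3cr1, chr9:120068297-120068546, minus strand: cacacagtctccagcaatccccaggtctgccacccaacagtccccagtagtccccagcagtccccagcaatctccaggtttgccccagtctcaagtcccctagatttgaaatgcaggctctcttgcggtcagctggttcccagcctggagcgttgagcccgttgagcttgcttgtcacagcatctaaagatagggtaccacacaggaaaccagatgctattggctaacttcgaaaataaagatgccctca

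The Ctss window holds 1 GAGGAA match, 164 to 159 bases before the start. It also holds 1 interferon response element match, on the opposite strand (GAAACCGAAA as printed), 21 to 12 bases before the start. Of 32851 promoter windows of this length, 23.3% hold GAGGAA and 2.98% the interferon element. The Cx3cr1 window holds 0 matches to the 4 motifs, which says only that these letters are not in it. The Cx3cl1 window, not shown, holds 2 GAGGAA matches. AP-1 and NF-kB letters occur in 4.46% and 0.14% of all windows and in 0 of these 3.

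Microglia markers were higher together with Cx3cr1 and Ctss. Of 25 listed microglia genes, all tested, 24 had a change above 0 (54.9% of all genes did), and the median was 0.73 against 0.028 over all genes. Before adjustment, 17 had p under 0.05 with SNL higher and 1 with SNL lower (6.67% and 5.47% of all genes), and after it 0 passed in limma. The groups did not overlap for 24 (46.1% of all genes), of which 23 were higher in SNL (25.2% of all genes). The summed level of the list on the log2 scale was 5.92 and 5.96 in the sham mice and 6.66 and 6.46 in the SNL mice, and every member was well above background on at least 1 array of each group. In whole cord, more microglia and more transcript per microglial cell cannot be told apart.

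The microglial genes spanned a wide range, and Cx3cr1 and Ctss lay inside it. The genes of complement C1q, which microglia make, were largest: C1qc at 1.61 ± 0.11, C1qb at 1.51 ± 0.12 and C1qa at 1.28 ± 0.12 (SE, n = 2 per group, limma adjusted p = 0.0746, 0.0880 and 0.0951). These genes passed with normexp correction (0.0402, 0.0473 and 0.0497), when dim probes were kept (0.0447 each) and with variance trend and robust estimation (0.00168, 0.00168 and 0.00236). Tmem119, a marker of resident microglia, was at 0.79 ± 0.11 and passed with the last of these settings (0.0145). The values were smaller for Aif1, which encodes Iba1, at 0.52 ± 0.15 and for P2ry12, the nucleotide receptor of resting microglia, at 0.26 ± 0.10 (0.14 with normexp correction). Itgam, which encodes CD11b, was at 0.33 ± 0.12 by its brightest probe and up to 1.02 by another, and its lowest value over the alternatives was 0.14. Of the 25, 14 had a larger change than Ctss and 11 a smaller one, while 16 lay above Cx3cr1 and 9 below.

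**Figure D2:**
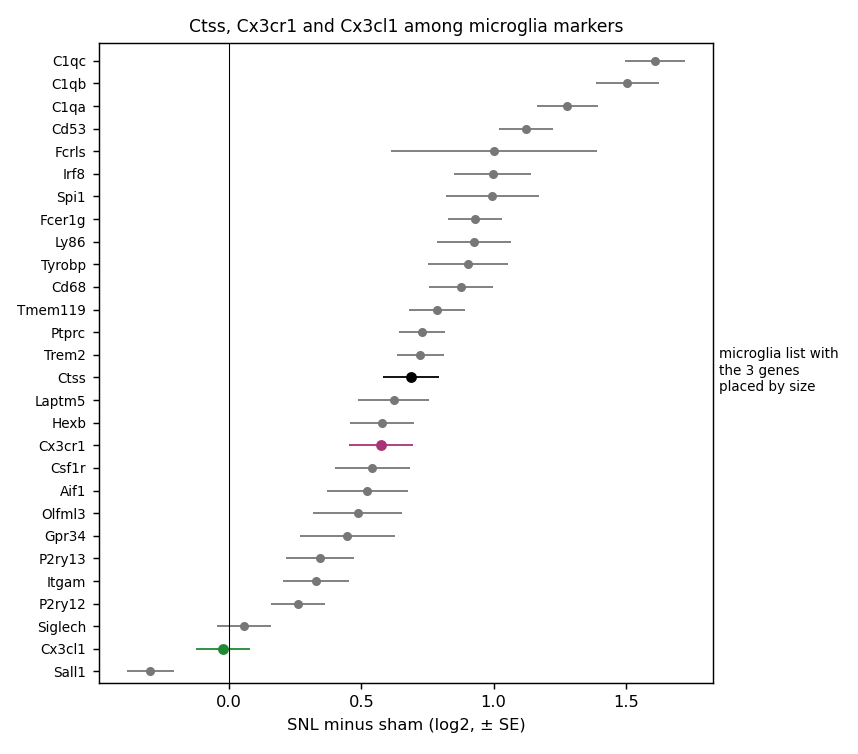
Change from sham to SNL (log2, points, with SE as bars, 2 mice per group) of the 25 microglia genes and the 3 genes, ordered by size. Ctss at 0.69 and Cx3cr1 at 0.57 lie in the middle of the microglia list, and Cx3cl1 at -0.023 lies between Siglech and Sall1.

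Both genes lay close to the median of that list in each mouse. With each gene set to its own mean over the 4 mice, the list median was -0.37 and -0.33 in the sham pair against 0.43 and 0.29 in the SNL pair. Ctss was at -0.42 and -0.27 in the sham pair against 0.37 and 0.31 in the SNL pair, and its change minus that of the list median was -0.025. Cx3cr1 was at -0.29 and -0.29 in the sham pair against 0.40 and 0.17 in the SNL pair, a change 0.14 below the list median, or 0.909-fold. Within each mouse, Cx3cr1 minus the list median was 0.086 and 0.045 in the sham pair against -0.029 and -0.12 in the SNL pair. These groups did not overlap (46.1% of all genes did not overlap by their own levels). For Ctss minus the list median they did, at -0.042 and 0.061 against -0.056 and 0.024. The SE of the Cx3cr1 change itself was 0.12, which is not the SE of its difference from the list median. These differences were not tested. Between the SNL mice, Cx3cr1, Ctss and the list median were all lower in replicate 2. This was not particular to microglial genes. Cx3cl1 (0.0099 and -0.033) and the neuron list median (0.075 and 0.0098) were also lower in that mouse. Among the cell type lists, only the endothelial median level was higher in it (-0.15 and -0.12).

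Cx3cl1 was set beside the cells that make it. Of 18 neuron genes, 14 were above 0 with a median of 0.10 (-0.0054 to 0.15 over the alternatives), 1 was higher at unadjusted p under 0.05 and 0 at adjusted p. That gene was Snap25, of the synaptic release machinery, at 0.43 ± 0.12 (SE, n = 2 per group, limma adjusted p = 0.349). Rbfox3, which encodes NeuN, was at 0.12 ± 0.12 by its brightest probe, and its 3 probes ranged from -0.31 to 0.12. Over the 17 neuron genes measured on all 4 arrays, the centred median was -0.10 and -0.018 in the sham pair against 0.075 and 0.0098 in the SNL pair. Cx3cl1 minus that median was 0.048 and 0.096 in the sham pair against -0.065 and -0.043 in the SNL pair, a measure added after these values were seen, on which the groups did not overlap (46.1% of all genes did not overlap by their own levels). Motor neuron genes were lower as a list (median -0.54, or -0.36 over genes well above background on all arrays, 7 of 8 below 0). Chodl, which marks fast motor neurons, was 3.84 lower on the log2 scale and passed (limma adjusted p = 0.0376). Among the alternatives that kept all 4 mice, Chodl did not pass with quantile normalization, by its other probe or with the replicate block. Its change lay between -3.94 and -3.57 over all 13 alternatives, which include each mouse left out. Mnx1, a motor neuron homeobox factor, was not well above background in SNL mice and was at least 15.6-fold lower. Because Mnx1 met the filter through its sham arrays only, its limma adjusted p of 0.0411 carries no weight. Endothelial genes, of another cell type that can make fractalkine, had a median of -0.24 with 9 of 10 below 0, 1 lower at unadjusted p under 0.05 and 0 at adjusted p. The part of these shifts in the Cx3cl1 value was not tested.

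**Figure D3:**
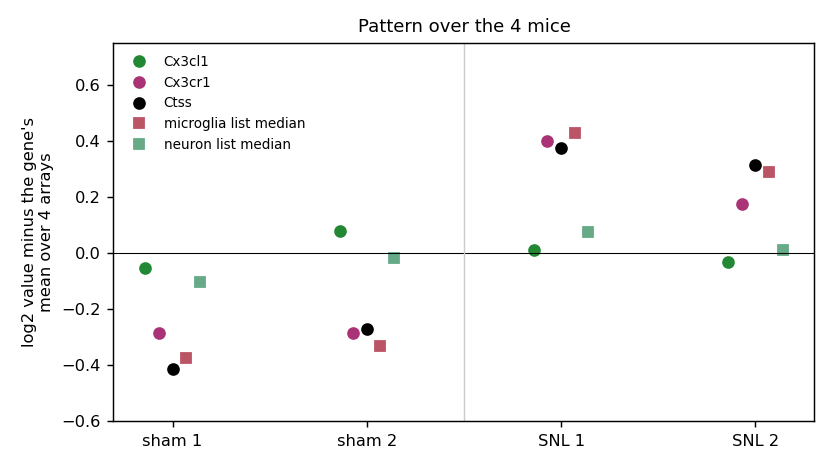
Log2 value minus the gene's own mean over the 4 arrays (vertical axis) in each mouse (horizontal axis), for the 3 genes (circles) and the median of the microglia and neuron lists (squares). Ctss, Cx3cr1 and the microglia median lie below 0 in both sham mice and above 0 in both SNL mice, while Cx3cl1 stays between -0.056 and 0.079.

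Genes that free or bind fractalkine showed no common direction. Besides cathepsin S, the membrane proteases ADAM10 and ADAM17 cut fractalkine, and integrin chains can bind its chemokine domain. Of these 6 genes, 3 were above 0, the median was 0.015 (-0.055 to 0.098 over the alternatives), and 0 passed at adjusted p. Adam10 was at 1.72 and 1.57 in the sham pair against 1.97 and 1.77 in the SNL pair, a change of 0.22 ± 0.13 (SE, n = 2 per group, limma adjusted p = 0.582). Normexp correction gave 0.35, leaving out sham replicate 2 gave 0.14 and leaving out SNL replicate 1 gave 0.12. Adam17 was at -0.048 and 0.044 in the sham pair against 0.075 and -0.16 in the SNL pair, with overlapping groups and a change of -0.041 ± 0.13. At unadjusted p under 0.05, the integrin chain gene Itgb1 was higher, at 0.47 ± 0.10, and Itgb3 was lower, at -0.61 ± 0.17 (adjusted p = 0.271 and 0.345). Another probe of Itgb1 was at 0.30 and another of Itgb3 at -0.18. Itga4 was at -0.33 by its brightest probe and at 0.77 by another, so its direction depended on the probe.

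Around cathepsin S, the largest value belonged to an inhibitor gene. Of 6 genes for its release, substrate and inhibitors, 5 were above 0, the median was 0.26 (0.023 without sham replicate 2 and 0.10 without SNL replicate 1), 2 were higher at unadjusted p under 0.05 and 0 passed at adjusted p. Cst7, which encodes cystatin F, an inhibitor of lysosomal cathepsins in immune cells, was at -5.53 and -5.54 in the sham pair against -2.78 and -3.27 in the SNL pair. Its change was 2.51 ± 0.20 (SE, n = 2 per group, limma adjusted p = 0.0880), or 5.70-fold, and it passed when dim probes were kept (0.0447) and with variance trend and robust estimation (0.0114). Cst3, which encodes the secreted inhibitor cystatin C, was at 3.57 and 3.69 in the sham pair against 4.08 and 4.13 in the SNL pair, a change of 0.47 ± 0.10 (adjusted p = 0.258) that was 0.24 with normexp correction. The groups did not overlap for Cst7 and Cst3. Of the other inhibitor genes on the list, Cstb was at 0.054 ± 0.14 with overlapping groups and Cst6 at 0.047 ± 0.088.

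P2rx7, the ATP-gated channel that triggers release of cathepsin S from microglia, was at -0.67 and -1.25 in the sham pair against -0.96 and -1.58 in the SNL pair. Its groups overlapped, and its probes ranged from -0.74 to 0.31. Cd74, the invariant chain that cathepsin S cuts during antigen presentation, was at -0.84 and -1.87 in the sham pair against -0.49 and -1.19 in the SNL pair, again overlapping. Its change was 0.52 ± 0.47, and was -0.00060 without sham replicate 2. Among 9 other genes of the MHC class II path, 7 were above 0 with a median of 0.50 (0.16 without sham replicate 2 and 0.13 without SNL replicate 1), 3 were higher at unadjusted p under 0.05 and 0 passed at adjusted p. H2-Oa, H2-Ob and H2-DMb2, which tune peptide loading, were these 3, at 1.52 ± 0.19, 0.62 ± 0.11 and 0.82 ± 0.17. Another probe of H2-Ob was at 1.38, and H2-Oa passed with variance trend and robust estimation (limma adjusted p = 0.0372).

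The other cathepsins were mixed. Of 13, 9 were above 0, the median was 0.12 (-0.0076 to 0.25 over the alternatives), and 0 passed at adjusted p in limma. With unadjusted p under 0.05 stood 3 higher genes and 2 lower ones. Ctsc, which activates serine proteases of immune cells, was at 0.82 ± 0.18 (SE, n = 2 per group, adjusted p = 0.263), and at 0.49 by its other probe. Ctsh was at 0.60 ± 0.13 (adjusted p = 0.262; 0.0486 with variance trend and robust estimation). Ctso was lower, at -0.77 ± 0.17 (adjusted p = 0.272).

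Signalling genes linked to the receptor in pain were mixed. Of 12, 8 were above 0, the median was 0.21 (0.040 with normexp correction and 0.32 without sham replicate 2), 5 were higher at unadjusted p under 0.05 and 0 passed at adjusted p. Mapk14, which encodes the p38 kinase that is phosphorylated in spinal microglia after nerve injury, was at 0.91 and 1.12 in the sham pair against 1.40 and 1.39 in the SNL pair, a change of 0.38 ± 0.12. Its other probe was at -0.24, and the change was 0.10 with normexp correction. Il1b, the cytokine released by activated microglia, was at -4.39 and -4.87 in the sham pair against -3.25 and -3.31 in the SNL pair, a change of 1.35 ± 0.20 (SE, n = 2 per group, limma adjusted p = 0.172). Il6, another inflammatory cytokine, was not well above background in sham cord and was at least 3.19-fold higher in SNL. Its fitted change of 1.92 became 1.07 with normexp correction. Il6 met the filter through its SNL arrays only. Its place in the counts above and its limma adjusted p of 0.162 therefore carry no weight. Over genes well above background on all arrays, the list median was 0.18. Tnf was at 0.45 ± 0.090 (adjusted p = 0.245).

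**Figure D4:**
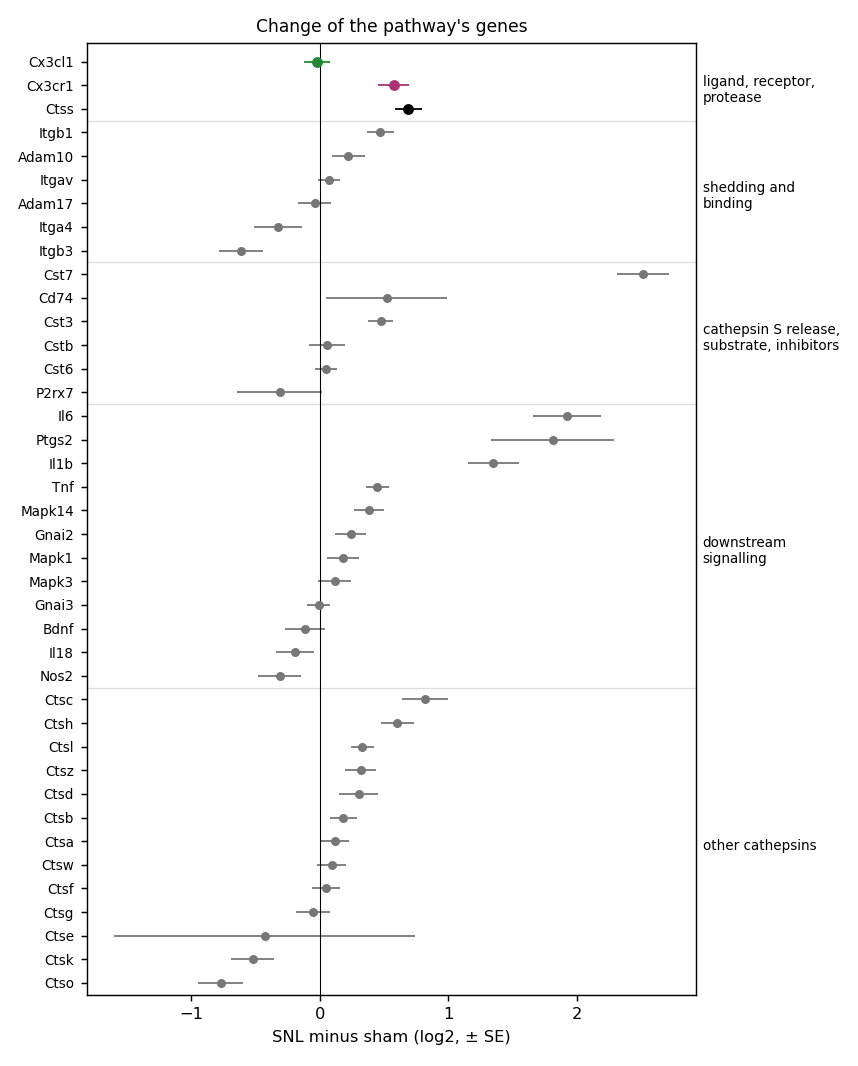
Change from sham to SNL (log2, points, with SE as bars, 2 mice per group) of Cx3cl1, Cx3cr1, Ctss and 37 genes of 4 groups around them, ordered by size within each group. Cst7, Il6, Ptgs2 and Il1b lie furthest to the right, and the fitted Il6 value rests on sham signals not well above background.

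Markers of other cells that carry Cx3cr1 or Ctss were also read. Of 11 tested genes of monocytes, neutrophils and border macrophages, 7 were above 0, with a median of 0.59 (-0.023 to 1.04 over the alternatives). At unadjusted p under 0.05 only the macrophage receptor gene Cd163 was higher, at 0.77 ± 0.25 (limma adjusted p = 0.393), or 0.36 with normexp correction. The summed level of this list was 3.31 and 3.50 in the sham pair against 3.46 and 2.99 in the SNL pair, so it overlapped between groups. Ly6c2, a marker of inflammatory monocytes, was not tested because it was well above background on too few arrays. Of 11 tested T, B and NK cell genes, 7 were above 0 and 3 were higher at unadjusted p under 0.05, Cd3e, Cd8a and Cd2, with summed levels of -0.76 and -0.53 in the sham pair against -0.46 and -0.68 in the SNL pair. Trbc1, of the T cell receptor, was not tested for the same reason. Astrocyte and oligodendrocyte lists had medians of 0.059 and 0.045 (0.0056 to 0.16 and -0.082 to 0.14 over the alternatives). The part of these cells in the Cx3cr1 and Ctss values was not tested.

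Among 17981 other genes with a current symbol and all 4 arrays above background, the 3 with the pattern most like each gene were taken by the smallest root mean square difference of centred log2 values over the 4 mice. For Cx3cr1 these were Hcls1 (difference 0.0205), Tlr13 (0.0243) and Smyd4 (0.0276). Hcls1 encodes a signalling protein of blood cells and Tlr13 a receptor for bacterial RNA. For Ctss they were Ucp3 (0.00822), Cdk15 (0.0158) and Btg1c (0.0243). Another probe of Ucp3 was at -0.41. For Cx3cl1 they were Gabpb1 (0.00319), Mettl22 (0.00382) and Shb (0.00403), all with changes near 0 by their brightest probe. Other probes reached -0.54 for Gabpb1 and -0.60 for Shb. With 4 mice such matches are a description only.

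**Figure D5:**
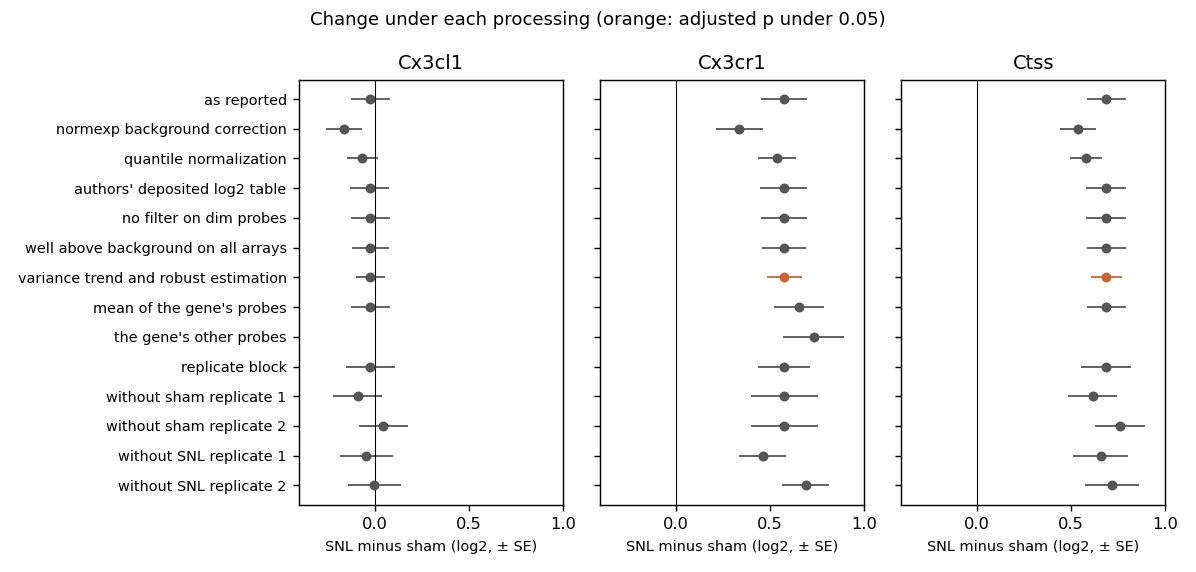
Change from sham to SNL (log2, points, with SE as bars) of the 3 genes as reported and under each alternative processing, orange where the adjusted p was under 0.05. Cx3cr1 lies between 0.34 and 0.73 and Ctss between 0.54 and 0.76, while Cx3cl1 lies between -0.16 and 0.044.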

How the data were processed

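The authors deposited 1 scanner file per array, which holds intensity values per spot. They were made with Agilent Feature Extraction (10.7.3.1 in the headers, while the submitters' processing notes name 10.7.1.1), and probe positions are on mm9 per the file headers. The authors' deposited table of log2 values served as an alternative: its columns followed the scanner values (r = 1, medians -3.52 to -3.33), so scale and direction are known, while the spots behind its centring are not.

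Outlier spots by the scanner's flags were dropped, and each array's log2 processed signal was set relative to its 75th percentile. Of 55681 probes, 31220 took a current symbol from a RefSeq table (GRCm38.p6 for the promoters). Probes well above background on at least 2 of 4 arrays were kept, and a gene was read by its brightest probe. Groups were compared in limma 3.58.1 (R 4.3.3) with Benjamini-Hochberg adjustment at 0.05 over all genes. The fit had 2 residual and 1.65 prior degrees of freedom, so the number of arrays limits the precision. A bound ("at least") sets each dim array at the higher of its own signal and the lowest signal well above background.

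Alternatives were normexp correction (offset 50), quantile normalization, the deposited table, other filters, probe rules and variance models, a replicate block, and each mouse left out. Members and lists were chosen with earlier results of these data known. Named genes are the 3 genes, 14 genes set by name, up to 3 of each list with the smallest p, and the 3 most alike per gene. Genes named outside that rule are Prx, Ptgs2, Siglech and Sall1, chosen after their values were seen, and genes not tested.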

Additional observations from a re-analysis of the deposited data

How the results depend on the processing

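The 3 genes kept their direction and their side of the threshold under the alternatives run, with 2 kinds of exception. Variance trend and robust estimation called Cx3cr1 and Ctss (0.57 and 0.69), and Cx3cl1 was at 0.044 without sham replicate 2. With 1 mouse left out, which assumes that the lone mouse of a group varies like the others, Cx3cl1 ranged from -0.090 to 0.044, Cx3cr1 from 0.46 to 0.69 and Ctss from 0.61 to 0.76. Over all genes, 50 were called (47 higher, 3 lower). The count was 133 with normexp correction (119 and 14), 11 with quantile normalization (11 and 0), 1225 with no filter on dim probes, 560 with variance trend and robust estimation (436 and 124), 0 by the genes' other probes, 0 with the replicate block and 0 to 0 with 1 mouse left out. The cause was not tested. With the replicate block Cx3cr1 and Ctss had limma adjusted p of 0.456 and 0.415. The labels link same-numbered mice only by that number, and their arrays share 1 of the position indices. Their deviations correlated at -0.028 across genes. A slide block was not run, since there was 1 slide. Among other named genes, normexp correction put Adam17 at 0.052 and Mettl22 at 0.076. The mean of probes put Rbfox3 at -0.16 and Itga4 at 0.22, and other probes put Rbfox3 at -0.29, Itga4 at 0.77, Mapk14 at -0.24 and Ucp3 at -0.41. With 1 mouse left out, Adam17 ranged from -0.16 to 0.077, Cd74 from -0.00060 to 1.04, Gabpb1 from -0.089 to 0.041, Mettl22 from -0.085 to 0.048 and Shb from -0.10 to 0.039. The microglia list median stayed between 0.64 and 0.79 over 13 alternatives.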
